A study of Mus musculus with 6 samples.

Results

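The angiogenic ligands are secreted proteins through which other cells instruct blood and lymph vessels. The set was named gene by gene and holds Vegfa, Vegfb, Vegfc, Vegfd, Pgf, Angpt1, Angpt2, Angptl2, Apln and Fgf2. Of these 10 genes 9 were measured, among 30697 named genes on the array, each by 1 probe set (a group of probes read as 1 value). Angptl2, a secreted angiopoietin-like protein, was not analysed here.

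Whole-transcript microarrays read total RNA of inguinal subcutaneous white fat from male C57BL/6 mice aged 2 months. The 3 mice of the KO group were TFG f/f; Adipoq-ERT2Cre, whose Cre recombinase, switched on by tamoxifen, is driven by the adiponectin promoter and so targets the floxed Tfg alleles in adipocytes. The 3 mice of the WT group were TFG f/f without Cre, and their label reads wild type. Tamoxifen was given to both groups for 5 days, 2 weeks before RNA was taken, so floxed alleles and tamoxifen were common to both and Cre was not. The labels call the arrays of a group biological replicates. Whole fat was read, in which fewer cells of a type and less RNA per cell cannot be told apart.

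Vascular endothelial growth factors bind tyrosine kinase receptors on endothelial cells. VEGFA drives the sprouting and permeability of blood vessels, mainly through the receptor encoded by Kdr, while VEGFC and VEGFD act on lymphatic vessels through the receptor encoded by Flt4. VEGFB and PGF bind the receptor encoded by Flt1. The angiopoietins act on the receptor encoded by Tek, with ANGPT1 as its activator and ANGPT2 as a context-dependent antagonist. Apelin and FGF2 have receptors of their own. In white fat adipocytes are a known source of VEGFA, whose gene responds to hypoxia-inducible factors, and adipose vessels feed the tissue as it grows.

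Values are log2 signals as deposited, so a difference of 1 is a doubling, and means are over n = 3 arrays per group. Array medians were 6.96 to 7.02 in the WT group and 6.47 to 6.76 in the KO group, and the median change over all 65956 probe sets was -0.37. The 11 measured housekeeping genes went the other way, with a mean that was 0.95 higher on the KO arrays (9.05 to 9.21 on WT and 9.84 to 10.46 on KO arrays). Tfg was not lower in the KO group. WT arrays read 7.97, 7.94 and 7.91, and KO arrays 7.99, 8.21 and 8.03 (limma adjusted p = 0.345, and exact 2-sided permutation p = 0.1, the smallest that 3 against 3 arrays allow). Centred on the housekeeping genes its change was -0.82. The stretch of Tfg that the probe set reads is not known here, so the text speaks of KO-labelled and WT-labelled arrays. limma called 13791 probe sets at an adjusted p under 0.05, or 20.9%, with 3509 of them higher and 10282 lower in the KO-labelled group. Without any one of WT 1, WT 2, WT 3 or KO 3 it called 0 probe sets, while 21579 to 28697 had an unadjusted p under 0.05.

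The promoters of 3 genes of the family are shown because Vegfa was the ligand gene that rose, while its paralogs Vegfb and Vegfc did not pass the test. Each line gives the 250 bases before the gene's first start in RefSeq, build GRCm38.p6, 5′ to 3′ on the gene's strand. Capitals mark the core of the hypoxia response element (ACGTG or GCGTG) and the GC box (GGGCGG), each searched on both strands with overlapping matches counted.
Vegfa, chr17:46032378-46032627, minus strand: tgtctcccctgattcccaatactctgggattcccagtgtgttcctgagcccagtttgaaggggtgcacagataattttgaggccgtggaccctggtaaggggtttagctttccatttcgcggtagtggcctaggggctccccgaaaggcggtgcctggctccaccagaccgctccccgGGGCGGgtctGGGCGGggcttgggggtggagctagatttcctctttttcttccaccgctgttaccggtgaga
Vegfb, chr19:6987652-6987901, minus strand: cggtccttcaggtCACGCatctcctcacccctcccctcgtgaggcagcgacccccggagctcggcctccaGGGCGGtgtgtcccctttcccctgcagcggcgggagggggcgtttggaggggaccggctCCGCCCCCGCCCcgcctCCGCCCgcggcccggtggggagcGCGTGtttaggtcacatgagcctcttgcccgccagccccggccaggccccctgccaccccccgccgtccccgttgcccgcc
Vegfc, chr8:54077282-54077531, plus strand: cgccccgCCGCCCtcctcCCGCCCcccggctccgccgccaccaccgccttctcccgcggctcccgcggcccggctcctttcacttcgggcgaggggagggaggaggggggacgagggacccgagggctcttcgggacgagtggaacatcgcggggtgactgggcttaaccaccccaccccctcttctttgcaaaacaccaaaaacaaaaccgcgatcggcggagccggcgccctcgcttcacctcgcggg

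The Vegfa window held 2 GC boxes, which start 72 and 62 bases before the transcript start, and no hypoxia core. The Vegfb window held 4 GC boxes and 2 hypoxia cores, and that of Vegfc 2 GC boxes and no hypoxia core. A second Vegfa start in RefSeq had 2 hypoxia cores, 218 and 211 bases before it. Windows were at hand for 8 of the 10 ligand genes. At the first start 7 of the 8 held a GC box and 3 of the 8 (Vegfb, Pgf and Fgf2) a hypoxia core. Of the 32851 windows that RefSeq gave for all genes, 32.7% held a GC box and 38.6% a hypoxia core. A match describes these letters in this window and is not evidence of binding.

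No detection calls were available. As a guide to background, 1228 olfactory receptor genes, which fat is not known for, had a median of 7.48 and a 95th percentile of 9.92 in WT-labelled means, and of 6.67 and 8.69 in KO-labelled means. Their median change was -0.81, with 403 called lower and 0 higher by limma, a shift further down than the change of any ligand gene. Vegfa in the KO-labelled group (mean 11.54) was the ligand mean above the 95th percentile of its group. The WT-labelled means of all 9 ligand genes, all 17 receptor genes and Epas1 were below theirs. Folds are therefore ratios of array signal, with no statement on how much of the lower signal is background.

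Vegfa was the ligand gene that rose. The WT-labelled arrays gave 9.93, 9.26 and 8.92, and the KO-labelled arrays 10.91, 12.28 and 11.44. Every KO-labelled value lay above every WT-labelled one, with KO 2 highest and WT 3 lowest. The mean went from 9.37 ± 0.51 (SD) to 11.54 ± 0.69, a rise of 2.17 ± 0.41 (SE) or 4.51-fold (95% interval 2.24 to 9.08; limma adjusted p = 0.036). Vegfa was higher under each scaling tried, by 2.49 after quantile normalization, 2.50 with arrays centred on their medians and 1.22 with arrays centred on the housekeeping genes. Actb, the cytoplasmic actin gene among the housekeeping genes, rose by the same 2.17. Without WT 1, WT 2, WT 3 or KO 3 Vegfa remained 2.45, 2.12, 1.95 and 2.23 higher, but its adjusted p was 0.0997, 0.0837, 0.114 and 0.0628. Without KO 1 or KO 2 it passed (adjusted p = 0.0366 and 0.0379).

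**Figure D1:**
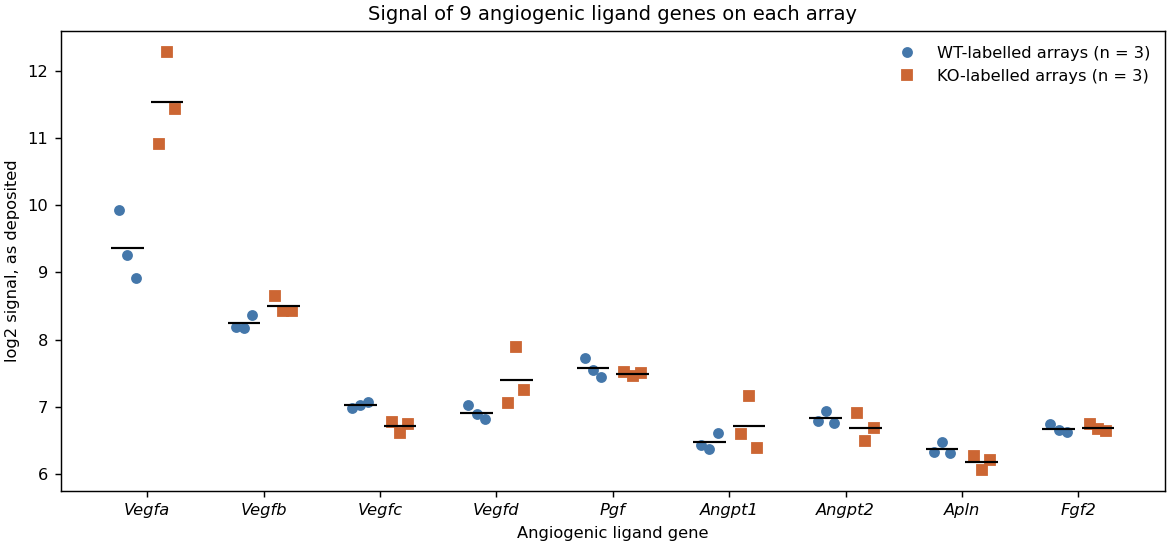
Log2 signal, as deposited, of the 9 measured ligand genes on each WT-labelled (circles, n = 3) and KO-labelled array (squares, n = 3), with group means as bars. Vegfa lies between 8.92 and 9.93 in the WT-labelled group and between 10.91 and 12.28 in the KO-labelled group, and the groups of the other 8 genes lie close together. Heights of different genes are not comparable.

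No other ligand gene passed the test. In all, 1 of 9 was called higher and 0 of 9 lower, beside 5.32% of all probe sets called higher and 15.6% called lower. Among named genes 8.91% were called higher and 13.0% lower, so 1 of 9 is near the background and is no result about the ligands as a set. The median change of the 9 was 0.01, against -0.37 over all probe sets. For the 8 genes other than Vegfa the changes ran from -0.32 to 0.49, with 4 above 0 and 4 below, and adjusted p from 0.0691 to 0.926. In 3 of the 9 every KO-labelled value lay above every WT-labelled value, and in 2 every one lay below, against 11.1% and 44.9% of all probe sets. The groups overlapped in the other 4, against 44.0%.

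Vegfb, whose product binds FLT1 and has been tied to fatty acid handling, did not pass the test. It read 8.19, 8.17 and 8.36 on the WT-labelled arrays and 8.65, 8.43 and 8.42 on the KO-labelled arrays. The KO-labelled values were all higher, KO 2 and KO 3 only just, and the change of 0.26 ± 0.12 (SE, 95% interval -0.04 to 0.56) missed the threshold (limma adjusted p = 0.142). With arrays centred on their medians it was 0.59 and passed (adjusted p = 0.0389), and centred on the housekeeping genes it was -0.69.

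Pgf encodes placental growth factor, the other FLT1 ligand. It read 7.73, 7.55 and 7.44 on the WT-labelled and 7.52, 7.46 and 7.50 on the KO-labelled arrays. The groups overlapped, and the difference was -0.08 (95% interval -0.37 to 0.21).

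The lymphatic growth factor genes did not pass either, and their values pointed opposite ways. Vegfc read 6.98, 7.03 and 7.07 on the WT-labelled arrays and 6.77, 6.61 and 6.74 on the KO-labelled arrays. All KO-labelled values were lower, with a difference of -0.32 ± 0.11 (SE, limma adjusted p = 0.0691) that lay close to the median of all probe sets and was 0.01 after centring on array medians. Vegfd read 7.02, 6.89 and 6.81 on the WT-labelled arrays and 7.06, 7.89 and 7.25 on the KO-labelled arrays. KO 2 was the high value, the other KO-labelled arrays lay closer to the WT-labelled ones, and the difference of 0.49 ± 0.23 (SE, adjusted p = 0.136) was 0.25 without KO 2.

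The angiopoietin genes overlapped between the groups. Angpt1 read 6.43, 6.37 and 6.61 on the WT-labelled arrays and 6.60, 7.16 and 6.39 on the KO-labelled arrays. KO 2 was again the high value, and the difference was 0.25 ± 0.22 (SE) with it and 0.03 without it. Angpt2, the gene of the antagonist, read 6.79, 6.93 and 6.76 on the WT-labelled and 6.90, 6.49 and 6.68 on the KO-labelled arrays, a difference of -0.14 (95% interval -0.48 to 0.21).

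Apelin is a peptide made by adipocytes and by sprouting endothelial cells. Its gene Apln read 6.32, 6.47 and 6.31 on the WT-labelled and 6.26, 6.06 and 6.21 on the KO-labelled arrays. The KO-labelled values were all lower, KO 1 only just, and the difference of -0.19 (95% interval -0.47 to 0.09) did not pass. Fgf2, which encodes basic fibroblast growth factor, read 6.74, 6.65 and 6.63 on the WT-labelled and 6.75, 6.67 and 6.64 on the KO-labelled arrays. The difference of 0.01 ± 0.10 (SE, limma adjusted p = 0.926) had a 95% interval of -0.24 to 0.27.

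Within the arrays, the log2 difference between Vegfa and Vegfb was 1.74, 1.09 and 0.56 on the WT-labelled arrays and 2.26, 3.85 and 3.02 on the KO-labelled arrays. Against the 8 other ligand genes this difference was larger in the KO-labelled group by 1.68 (Vegfd) to 2.49 (Vegfc). These ratios do not depend on how whole arrays are centred, but they restate the rise of Vegfa, share its values and were chosen after it was seen, so they carry no test. Some genes outside the set, all higher on the KO-labelled arrays themselves, were picked for the same comparison. Against these the difference shifted by less or the other way. Most genes were not like them, since the median change of named genes was -0.27 and Vegfa lay at their percentile 98.7. The difference to Actb shifted by 0.00, to Kdr by -0.31 and to Pecam1 by -0.21, and to Flt1 and Tek by 0.72 and 0.80, all with overlapping groups. Against Cdh5, Pparg and Epas1 it shifted by -1.88, -1.48 and -0.96, so Vegfa rose by less than these genes.

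Genes of the receptors of these ligands rose in several families. Of 17 measured receptor genes, counting co-receptors and receptor partners, 9 rose and 0 fell, beside 8.91% of named genes called higher, with a median change of 0.72. The 9 include Ptprb, Tie1 and Klb, which do not encode receptors of these ligands. Of the 11 housekeeping genes 6 rose, with a median of 1.11, and relative to their mean the receptor mean changed by -0.09. With arrays centred on the housekeeping genes 5 receptor genes were called higher and 7 lower. That setting called 1055 of all 65956 probe sets higher and 57937 lower, so the 7 are no result about the receptors. Without WT 1, WT 2, WT 3 or KO 3 the count was 0, as it was over the whole array. Kdr, the main VEGFA receptor, read 7.43, 7.47 and 7.21 on the WT-labelled arrays and 9.52, 10.24 and 9.79 on the KO-labelled arrays. Its groups did not overlap, and the rise of 2.48 ± 0.21 (SE) amounted to 5.58-fold (limma adjusted p = 0.0346). Flt1, which encodes the receptor of VEGFA, VEGFB and PGF, read 7.62, 7.66 and 7.44 on the WT-labelled and 8.75, 9.40 and 8.93 on the KO-labelled arrays. It rose 2.74-fold (95% interval 1.98 to 3.79), also without overlap, but by 0.50 on the log2 scale and without passing with arrays centred on the housekeeping genes (limma adjusted p = 0.107). The semaphorin and VEGF co-receptor gene Nrp2 rose by 0.72 ± 0.15 (SE), a direction that turned to -0.24 with arrays centred on the housekeeping genes. Flt4, the lymphatic receptor of VEGFC and VEGFD, read 6.52, 6.41 and 6.55 on the WT-labelled and 6.40, 6.42 and 6.30 on the KO-labelled arrays and did not pass (-0.12, 95% interval -0.38 to 0.14).

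The angiopoietin receptor gene Tek rose, and neither angiopoietin gene passed the test. It read 7.31, 7.37 and 7.15 on the WT-labelled arrays and 8.50, 9.09 and 8.35 on the KO-labelled arrays, a rise of 1.37 ± 0.21 (SE) or 2.58-fold. Centred on the housekeeping genes Tek was 0.42 higher and its call was lost (limma adjusted p = 0.181). Ptprb, which encodes the phosphatase that dampens TEK signalling, rose 6.25-fold (95% interval 3.55 to 11.0). Tie1, the orphan partner of TEK, rose by 0.49 ± 0.11 (SE) as deposited but read -0.47 with arrays centred on the housekeeping genes, and its call was lost without any one of WT 1, WT 2, WT 3, KO 1 or KO 3 (adjusted p from 0.0554 to 0.118). The apelin receptor gene Aplnr read 8.85, 8.85 and 8.93 on the WT-labelled and 9.39, 8.71 and 8.75 on the KO-labelled arrays, and overlapped between the groups.

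Among FGF receptors the change lay in 1 of 3 genes. Fgfr1, which binds FGF2, read 8.38, 8.12 and 8.09 on the WT-labelled arrays and 9.29, 10.83 and 9.93 on the KO-labelled arrays, a 3.53-fold rise without overlap. Fgfr2 and Fgfr3 were at -0.08 and -0.07 and did not pass. Klb, the co-receptor gene for endocrine FGFs, rose by 1.77 ± 0.40 (SE), from a mean of 5.34, under the 5th percentile of the olfactory receptor genes (5.92), to 7.11. The heparan sulfate proteoglycan gene Sdc4 was 1.12 ± 0.31 (SE) higher without passing (limma adjusted p = 0.0511). Of the receptors described for ANGPTL2, the integrin gene Itgb1 rose 3.52-fold, while Itga5 (-0.01), Lilrb4a (-0.06) and Pirb (-0.66, adjusted p = 0.0559) did not pass. The plot of changes with their intervals sets the ligands beside these receptors.

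**Figure D2:**
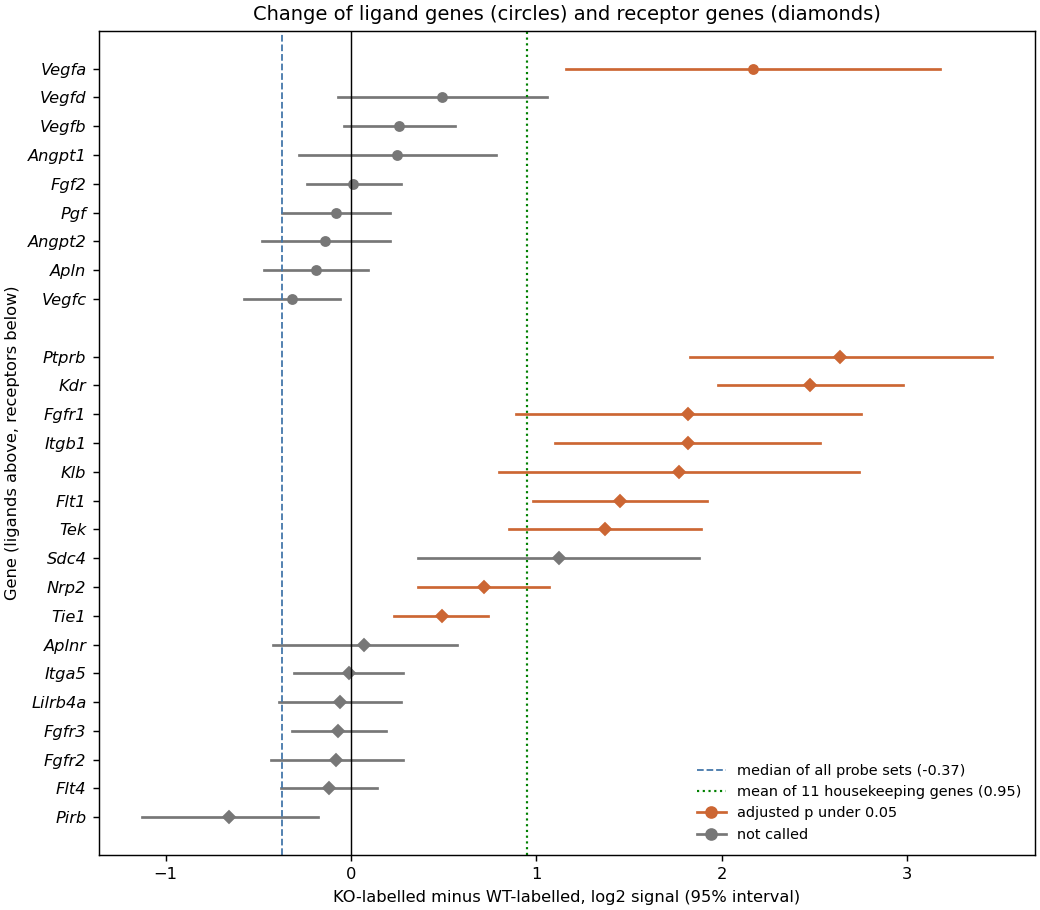
Change between KO-labelled and WT-labelled arrays (n = 3 each) on the log2 scale, with 95% intervals from limma, for 9 ligand genes (circles) and 17 receptor genes (diamonds), orange where the adjusted p is under 0.05. The dashed line marks the median change of all probe sets (-0.37) and the dotted line the mean change of 11 housekeeping genes (0.95). Vegfa, at 2.17, stands apart from ligands at -0.32 to 0.49. Of the diamonds, which include co-receptors and receptor partners, 9 are orange, from Tie1 at 0.49 to Ptprb at 2.64.

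Markers of several cell types moved beside Vegfa and these receptors. Among named genes 8.91% were called higher and 13.0% lower. The mean of 11 adipocyte markers was 9.74, 10.13 and 8.60 on the WT-labelled and 12.38, 13.24 and 12.08 on the KO-labelled arrays, and 9 of the 11 rose, among them Adig (4.96-fold) and Aqp7 (9.92-fold). Fabp4, the fatty acid binding protein of adipocytes, ranged from 14.45 to 17.96 in the WT-labelled group and from 18.78 to 19.57 in the KO-labelled group. It did not pass the test (limma adjusted p = 0.0769). Of the 11 markers 2, 5 and 1 exceeded the olfactory 95th percentile on WT 1, WT 2 and WT 3, and 9, 10 and 9 on the KO-labelled arrays. WT 3 was lowest for both Vegfa and the marker mean. The mean of 9 endothelial markers lay between 7.07 and 7.25 in the WT-labelled and between 8.23 and 8.88 in the KO-labelled group. Of these 9, 7 rose, among them Cdh5, Pecam1 and Tie1, the last counted also among the receptor genes. Relative to the housekeeping mean, the adipocyte mean changed by 2.12 and the endothelial mean by only 0.40. Of 9 pericyte and smooth muscle markers 2 rose and 7 were not called. The pericyte gene Rgs5 rose 3.82-fold, the largest change of the list (1.93), while the lowest was -0.23 and the median 0.36. Relative to the housekeeping mean the mean of this list changed by -0.41. Of 4 lymphatic endothelial markers 0 passed in either direction, with a mean between 6.81 and 6.87 in the WT-labelled and between 6.53 and 6.79 in the KO-labelled group. The part of adipocyte and endothelial content in the changes of Vegfa and its receptors was not tested.

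Skeletal muscle, which makes VEGF too, was uneven among the KO-labelled arrays. The mean of 10 muscle markers was 6.97 to 7.05 on WT-labelled arrays and 8.65, 10.07 and 6.88 on KO 1, KO 2 and KO 3. The fast muscle gene Atp2a1 read 11.20, 13.39 and 7.12 on these arrays, and Vegfa 10.91, 12.28 and 11.44. Without KO 2, the array with the most muscle signal, the rise of Vegfa was 1.80 ± 0.35 (SE). Vegfd and Angpt1 were highest on KO 2, but so were the adipocyte (13.24), endothelial (8.88) and housekeeping (10.46) means. The part of muscle in these values was not tested. Of the remaining marker lists, 2 of 9 macrophage genes rose and 1 fell, and 1 of 8 progenitor and fibroblast genes rose. In addition, 2 of 6 lymphocyte and 1 of 6 mammary epithelial genes fell. These counts stand beside 8.91% of named genes called higher and 13.0% called lower. Of 5 mesothelial genes 0 passed.

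**Figure D3:**
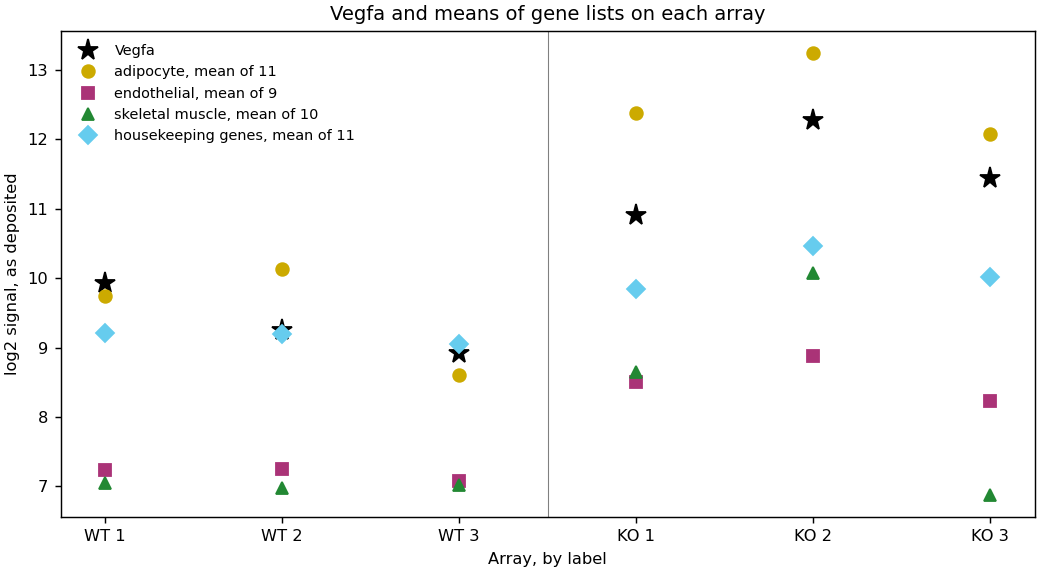
Log2 signal of Vegfa (stars) and the mean of 11 adipocyte, 9 endothelial, 10 skeletal muscle and 11 housekeeping genes on each of the 6 arrays. Vegfa, adipocyte, endothelial and housekeeping means are higher on all 3 KO-labelled arrays, while the muscle mean is 8.65 and 10.07 on KO 1 and KO 2 and 6.88 on KO 3.

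Genes of the hypoxia-inducible factors, which act on the Vegfa gene, were measured beside it. Of 8 genes of that pathway 4 rose and 0 fell, beside 8.91% of named genes called higher, with a median change of 0.75. Relative to the housekeeping mean the mean of the list changed by -0.10. Epas1, which encodes HIF-2α, the form abundant in endothelium and fat, read 7.44, 7.40 and 6.61 on the WT-labelled arrays and 9.67, 11.30 and 9.88 on the KO-labelled arrays. Its groups did not overlap and its signal rose 8.77-fold (95% interval 3.91 to 19.7), or by 2.18 on the log2 scale with arrays centred on the housekeeping genes. The dimerization partner gene Arnt rose 2.41-fold and the oxygen sensor Egln1, itself induced by these factors, 2.19-fold. Centred on the housekeeping genes both calls were lost, at 0.31 for Arnt and 0.18 for Egln1 (limma adjusted p = 0.319 and 0.563). Hif1a rose by 0.70 ± 0.16 (SE), and its direction turned to -0.25 with arrays centred on the housekeeping genes. RNA levels of these genes do not show the activity of the factors, whose proteins are controlled by degradation.

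Among 11 measured targets of these factors 3 rose and 0 fell, beside 8.91% of named genes called higher, with a median change of 0.44 and a list mean that changed by -0.13 relative to the housekeeping mean. The mitophagy gene Bnip3 rose 7.53-fold, the glycolytic regulator Pfkfb3 3.33-fold and lactate dehydrogenase A, Ldha, 2.39-fold. Ldha lost its call with arrays centred on the housekeeping genes (0.30, limma adjusted p = 0.321). Ndrg1 was 1.14 ± 0.34 (SE) higher without passing (limma adjusted p = 0.0564). The other 7 did not pass. Among them, the probe set used for Pgk1 carries chromosome 12 in its ID, while RefSeq places the gene on the X chromosome. What it reads is not known here. Of 4 measured coactivator and regulator genes linked to VEGF 1 rose, beside 8.91% of named genes called higher. It was Pparg, the adipocyte transcription factor (12.6-fold), counted also among the adipocyte markers.

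Of 14 genes of other secreted factors of angiogenesis, 4 rose and 1 fell, beside 8.91% and 13.0% of named genes, with a median change of -0.07. The 1 lower call is therefore no result about the list. Angptl4, a lipoprotein lipase inhibitor with effects on vessels, rose 5.23-fold, from 7.99, 8.06 and 7.55 to 9.87, 11.21 and 9.68. Pdgfb, through which endothelial cells recruit pericytes, rose 1.75-fold and the adrenomedullin gene Adm 1.59-fold, and both turned negative (-0.14 and -0.28) with arrays centred on the housekeeping genes. The cytokine gene Il6 fell by 0.48 on the log2 scale, and read 6.14, 6.05 and 5.99 against 5.59, 5.54 and 5.62. Its call was lost after quantile normalization (-0.12, limma adjusted p = 0.536) and with arrays centred on their medians (-0.15, adjusted p = 0.489).

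Of 9 measured genes of angiogenesis inhibitors 2 rose and 0 fell, beside 8.91% of named genes called higher, and these were Sparc (5.22-fold), a matrix protein that binds VEGF, and the metalloproteinase inhibitor gene Timp3 (3.07-fold), whose product blocks VEGF binding to KDR. Timp3 lost its call with arrays centred on the housekeeping genes (0.66, limma adjusted p = 0.0535). Of 7 Notch pathway and tip cell genes 2 rose, beside 8.91% of named genes called higher. These were Jag1, by 0.70 ± 0.18 (SE), and Notch1, by 0.58 ± 0.16 (SE), and both turned negative with arrays centred on the housekeeping genes. Apln, counted also in this list as a tip cell gene, did not pass the test.

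**Figure D4:**
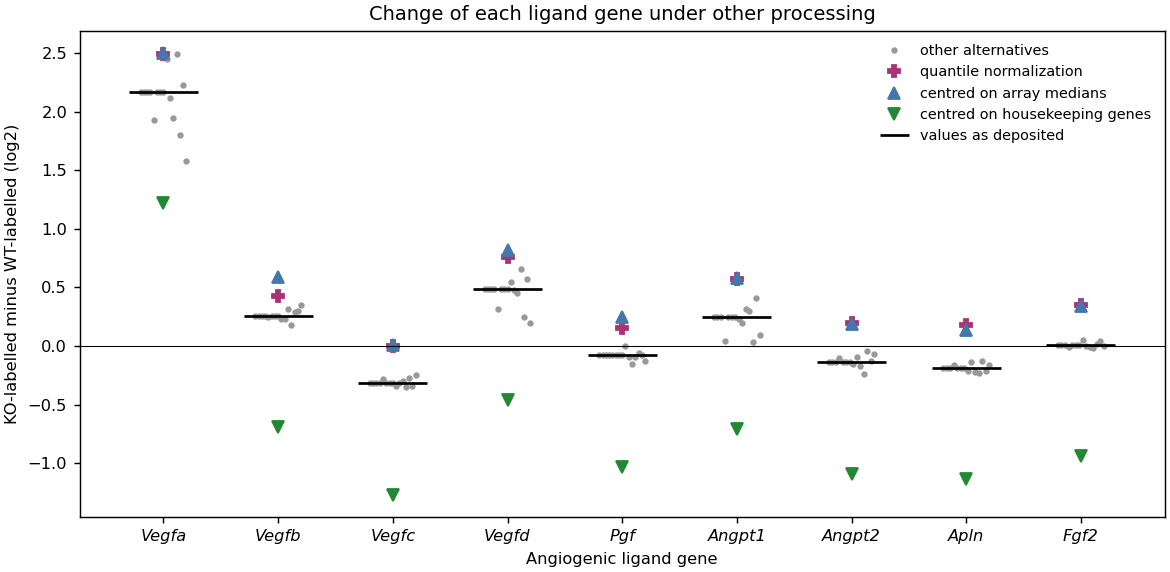
Change of each of the 9 ligand genes between KO-labelled and WT-labelled arrays (log2), as deposited (black bars), under quantile normalization (plus signs), with arrays centred on their medians (triangles up) or on 11 housekeeping genes (triangles down), and under the other alternatives (grey dots). Vegfa stays above 0 throughout, at 1.22 to 2.50, and the other 8 genes each cross 0 between scalings.

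For the 8 ligand genes that did not pass, the scaling set the sign. Centring adds the same amount to the change of every gene, so differences this close to 0 turn with it and show no direction of their own. With arrays centred on their medians the changes of Pgf, Angpt2 and Apln became 0.25, 0.19 and 0.14. With arrays centred on the housekeeping genes 6 ligand genes (Vegfc, Pgf, Angpt1, Angpt2, Apln and Fgf2) were called lower, at -0.71 to -1.27, while Vegfa was called higher at 1.22. In that setting 57937 of all 65956 probe sets were called lower and 1055 higher, so these lower calls are no result about the ligands. The housekeeping mean separates the groups completely, and so do the array medians, so neither scaling can be told apart from the genotype labels.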

How the data were processed

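Total RNA was labelled with the GeneChip WT Pico chemistry and read on whole-transcript arrays, 1 per mouse, per the labels' protocols. The authors deposited log2 signals per probe set, made with Transcriptome Analysis Console per the submitters' processing notes. No source used here gives the background correction, the normalization or the genome build. Values were used as deposited. Of 65956 probe sets 31225 carried 1 gene symbol in the platform annotation, 1525 several and 33206 none. Each gene was represented by 1 single-symbol probe set, the one whose mean over the 6 arrays was highest.

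All probe sets were fitted with limma 3.58.1 (lmFit and eBayes, R 4.3.3) on the 2 groups of 3 arrays, with Benjamini-Hochberg adjustment over all 65956 and a threshold of 0.05. The procedure was tested on simulated data with few changed probe sets and no shift between arrays, so that test does not cover the shifts seen here. SEs and 95% intervals come from that fit, and other values from Python 3.11.15 with scipy 1.17.1. The number of arrays limits the precision. Alternatives were quantile normalization, centring on array medians or housekeeping genes, filters on dim probe sets, other eBayes settings, array weights, a replicate block, probe sets with 1 symbol, means over a gene's probe sets, a threshold of 0.1, and leaving arrays out. The ligands and their receptors were named as whole lists, and from every other list up to 4 (pathways) or 3 (markers) genes with the smallest p. Fabp4 and Pgk1 were named besides these. The ligands and all lists were chosen with earlier results of these data known.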

Additional observations from a re-analysis of the deposited data

How the results depend on the processing

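Vegfa was higher in all 18 alternatives that refitted it, by 1.22 to 2.50, and passed the threshold in 13. Quantile normalization called 6244 probe sets, 2212 of them lower. Centring on array medians called 8405, 3259 of them lower, and 2 ligands. Centring on housekeeping genes called 58992, 1055 higher and 57937 lower, and 7 ligands. Of all calls 25.4% were higher as deposited, 64.6% after quantile normalization, 61.2% after median centring and 1.79% after housekeeping centring. Array weights called 22409, 17432 of them lower, and 2 ligands, Vegfc included. A threshold of 0.1 called 30676 probe sets and 2 ligands. With 1-symbol probe sets alone 6768 were lower. Leaving out 1 array gave 0 to 14166 probe sets, 0 to 3469 higher, 0 to 10697 lower, 0 to 1 ligands and 0 to 10 receptors. Leaving out both WT 3 and KO 2, chosen after seeing the data, called 0 probe sets, 0 ligands and 0 receptors by limma, with 20784 probe sets at an unadjusted p under 0.05, and Vegfa at 1.58. Signs turned under quantile normalization for Pgf (0.15), Angpt2 (0.20), Apln (0.18), Fgfr2 (0.24), Fgfr3 (0.25), Flt4 (0.24), Itga5 (0.21) and Lilrb4a (0.20). They turned under median centring for Vegfc (0.01), Pgf (0.25), Angpt2 (0.19), Apln (0.14), Fgfr2 (0.25), Fgfr3 (0.26), Flt4 (0.21), Itga5 (0.32) and Lilrb4a (0.27). They turned under housekeeping centring for Tfg (-0.82), Vegfb (-0.69), Vegfd (-0.46), Angpt1 (-0.71), Fgf2 (-0.94), Aplnr (-0.88), Nrp2 (-0.24), Tie1 (-0.47), Hif1a (-0.25), Pdgfb (-0.14), Adm (-0.28), Jag1 (-0.25) and Notch1 (-0.38). With arrays weighted Fgf2 was -0.01. Signs also turned without WT 1 (Itga5 0.04), WT 3 (Fgf2 -0.01, Fgfr2 0.04), KO 1 (Fgf2 -0.02, Aplnr -0.15), KO 3 (Itga5 0.06) and both WT 3 and KO 2 (Fgfr2 0.03), and with arrays left out Aplnr ran up to 0.22 and Itga5 down to -0.06. The causes were not tested. Same-numbered arrays correlated in their deviations from group means at 0.00, 0.20 and 0.14, so the numbers are not taken to pair the mice. With the replicate number as a block limma called 11227 probe sets, 1 ligand and 8 receptors, and Vegfa kept its rise of 2.17 (adjusted p = 0.0466). Tie1, Il6, Hif1a and Notch1 lost their calls with the block (adjusted p from 0.0616 to 0.0647). Depth is not defined for arrays, and without detection calls low signals cannot be told from background.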
